A study of Mus musculus with 768 samples.

Results

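Thymocytes of the CD25-positive gate were divided by the RNA of 2 genes, Cpa3 and Ptcra, and both sets of cells were then compared across all other genes within the same plates. Cpa3 encodes carboxypeptidase A3, a mast cell protease whose mRNA is also found in early mouse T-cell precursors, and Ptcra encodes the invariant alpha chain of the pre-T-cell receptor. The cells were chosen by these 2 counts: a cell was Cpa3-positive when it held at least 2 counts of Cpa3 and at most 1 of Ptcra, and Ptcra-positive when it held at least 2 counts of Ptcra and at most 1 of Cpa3, among cells with at least 1000 detected genes. The rule was met by 184 of the 768 cells of the study, 55 of them Cpa3-positive and 129 Ptcra-positive, on 3 plates that held 266 cells with enough genes. Of the other cells with enough genes on these plates, 35 held at least 2 counts of both genes and 47 held fewer than 2 of each.

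The study sequenced RNA of single thymocytes from C57BL/6 mice aged 6 to 8 weeks, 96 cells to a plate, to follow the transcription factor TCF1, encoded by Tcf7, through early T-cell stages. The 3 plates used here are 2 plates of Tcf7fl/fl mice with Lck-cre, a recombinase driven by a promoter that becomes active in T-cell precursors, and 1 plate of wild-type (WT) mice. All were sorted for CD45 and CD25 and against CD4, CD8 and lineage markers, which the labels call DN2 and DN3 cells, that is double-negative thymocytes of successive stages. Plates of Tcf7fl/fl mice with Vav-cre and of germline Tcf7-/- mice from this gate held 3 and 1 Cpa3-positive cells, against 45 and 82 Ptcra-positive cells, and were not compared between classes. No animal is named in the labels, so both Lck-cre plates may come from 1 mouse. The p-values measure only how the difference between classes varies from plate to plate.

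As background, precursors that have just entered the T-cell path carry the receptor tyrosine kinase Kit and still transcribe genes of blood progenitors. Under Notch signalling they commit to the T lineage with the transcription factors Gata3, Tcf7 and Bcl11b. In the next stage Rag1 and Rag2 cut the T-cell receptor beta locus, and the new beta chain is displayed with the Ptcra chain and the CD3 proteins. Loss of Kit and gain of Ptcra are therefore used as signs of the passage between these stages.

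The genes that chose the cells are given as a description, with no test. Cpa3 (mm10, chromosome 3, 20215620 to 20242181, minus strand) stood at 1031 and 862 CPM on the Lck-cre plates and 1066 CPM on the WT plate in Cpa3-positive sums, against 2.73 and 4.89 CPM (Lck-cre) and 8.12 CPM (WT) in Ptcra-positive sums, where CPM is the share of 1000000 counts, taken over the counts summed for a class on a plate. Ptcra (chromosome 17, 46755663 to 46763712, minus strand) stood at 4.92 and 2.72 CPM on the Lck-cre plates and 4.3 CPM on the WT plate in Cpa3-positive sums, against 490.2 and 427 CPM (Lck-cre) and 310.4 CPM (WT) in Ptcra-positive sums. Cpa3-positive cells held a median of 19 Cpa3 counts and at most 752. In 10 of the 55 cells Cpa3 was just inside the limit, at 2 counts, and 11 cells fell just outside, at 1 count. Ptcra-positive cells held a median of 17 Ptcra counts and at most 195, with 9 of the 129 cells at 2 counts and 12 cells just outside at 1. The plot of both counts by plate shows no gap at the limits in either gene.

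**Figure D1:**
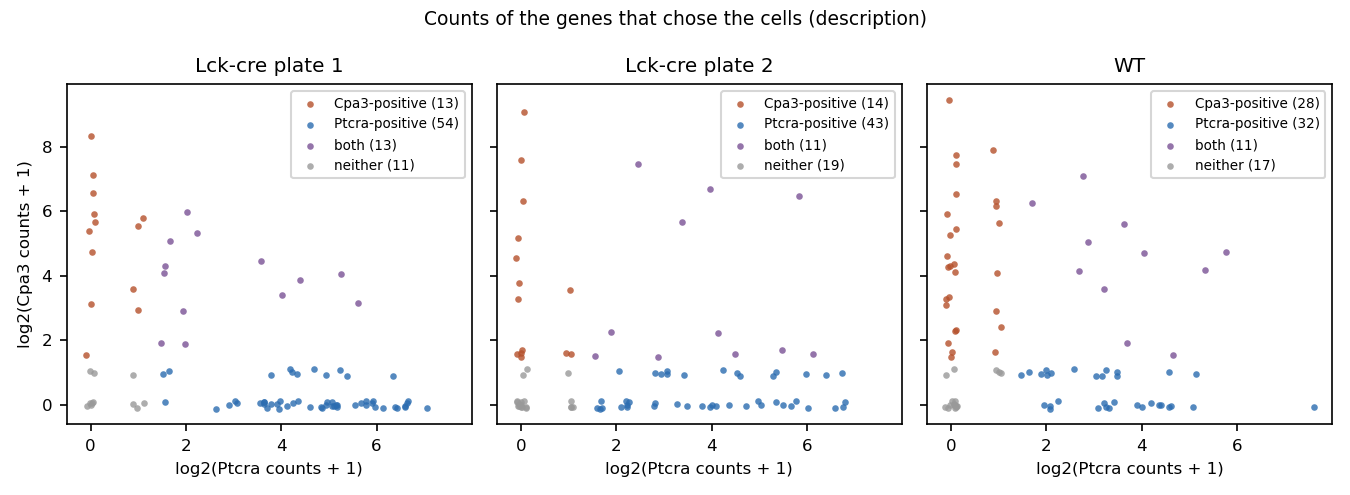
Counts of Ptcra (horizontal axis) and Cpa3 (vertical axis), both as log2(count + 1), of every cell with at least 1000 genes on the Lck-cre plates and the WT plate; each point is 1 cell, moved slightly at random so that equal counts can be seen. Cpa3-positive cells number 13, 14 and 28 on Lck-cre plate 1, Lck-cre plate 2 and WT, Ptcra-positive cells 54, 43 and 32.

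The Lck-cre plates held fewer Cpa3-positive cells than the WT plate in these libraries. Of cells with enough genes, 14.3% (95% Clopper-Pearson interval 7.83 to 23.2) and 16.1% (9.09 to 25.5) were Cpa3-positive on the Lck-cre plates, and 31.8% (22.3 to 42.6) on the WT plate. Ptcra-positive cells made up 59.3% (48.5 to 69.5) and 49.4% (38.5 to 60.4) on the Lck-cre plates and 36.4% (26.4 to 47.3) on the WT plate. The interval of each Lck-cre share overlaps that of the WT share for Cpa3-positive cells on both plates, and for Ptcra-positive cells on plate 2. WT is a single plate, so genotypes were not tested, and intervals cover counting error only. In DN1 cells of WT mice, a gate without CD25, the same rule found 1 Cpa3-positive and 2 Ptcra-positive cells among 86.

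By their median, Cpa3-positive cells were the deeper ones on every plate. The median Cpa3-positive cell held 73571 and 55687.5 counts on the Lck-cre plates and 48335.5 on the WT plate, against 56307.5 and 45468 (Lck-cre) and 41150.5 (WT) in Ptcra-positive cells. The summed counts behind each value were 812592, 1103925 and 1859656 for Cpa3-positive cells of Lck-cre plate 1, Lck-cre plate 2 and WT, and 4034852, 2862923 and 1723508 for Ptcra-positive cells. The smallest sum thus rests on 13 cells. No pair of cells had equal counts, and all 3 plates reuse the same 96 barcode numbers.

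Tcf7, the gene the Lck-cre plates are labelled as having deleted, was present in both classes. Cpa3-positive sums held 726 and 690.3 CPM on the Lck-cre plates and 781 CPM on the WT plate, against 761 and 579 CPM (Lck-cre) and 877 CPM (WT) in Ptcra-positive sums, and 98.2% of Cpa3-positive and 96.1% of Ptcra-positive cells had a count. The classes overlapped and the log2 fold change, Cpa3-positive over Ptcra-positive, was 0.01 ± 0.18 (SE; adjusted p = 0.997, edgeR). Which part of the transcript was counted is not given in the sources used here, and whether the protein was lost cannot be read from them, so the plates are named by their labels.

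Kit, the receptor that marks the earlier stage, was close to absent from both classes. It held 7.38 and 30.8 CPM on the Lck-cre plates and 11.8 CPM on the WT plate in Cpa3-positive sums (95% Poisson intervals 2.72 to 16.1, 21.3 to 43 and 7.41 to 17.9), against 7.19 and 5.24 CPM (Lck-cre) and 12.2 CPM (WT) in Ptcra-positive sums. Lck-cre plate 2 stood above the others among Cpa3-positive sums, with 40.3% of all Kit counts of the class in 1 cell, and the classes overlapped. A count of Kit was found in 16.4% of Cpa3-positive and 11.6% of Ptcra-positive cells, and the fold change was 0.82 ± 1.44 on the log2 scale (adjusted p = 0.972, edgeR). Bcl11b, the factor that closes commitment to the T lineage, held 534 to 801 CPM in Cpa3-positive and 663 to 826 CPM in Ptcra-positive sums and overlapped between them (log2 fold change -0.05 ± 0.18, adjusted p = 0.983). Dntt, the polymerase that adds bases at receptor gene joints, held 3277 to 3614 CPM in Cpa3-positive and 2441 to 2717 CPM in Ptcra-positive sums (log2 fold change 0.42 ± 0.11, adjusted p = 0.152). Every Cpa3-positive cell had counts of Bcl11b and Dntt. Kit was this scarce, yet Cd3d and Rag1 were lower in Cpa3-positive than in Ptcra-positive sums, as given below. These genes do not fix a stage, so the Cpa3-positive cells are not named DN2 cells. Both classes are called here by the genes of the rule.

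Across all genes, 26 of 8312 tested, or 0.313%, passed an adjusted p of 0.05 between Cpa3-positive and Ptcra-positive sums, with plate as a block in edgeR's quasi-likelihood fit. Of these, 16 (0.192% of all tested) were higher in Cpa3-positive cells and 10 (0.12%) lower. At an unadjusted p under 0.05 there were 279 higher (3.36%) and 283 lower genes (3.4%), together 6.76%. The values of the 3 Cpa3-positive sums lay apart from those of the 3 Ptcra-positive sums in 25 of the 26 genes, all 16 higher ones and 9 of the 10 lower ones, where over all genes 6.28% lay wholly above and 7.39% wholly below. The 26 genes were called on these same sums, so this separation largely follows from the call and adds no support to it. Cells that a sum pools can differ, and more cells of a kind cannot be told apart from more RNA per cell in such a sum.

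The number of calls depends on the plates and on the limits of the rule. Without Lck-cre plate 1 27 genes were higher and 23 lower, without Lck-cre plate 2 35 and 17, and without the WT plate 28 and 15. Without the plate block 6 were higher and 5 lower, and with at least 6 counts of the defining gene and 0 of the other 6 and 4. The genes of both these fits were all among the 26, and the stricter limits left 7150 genes tested. With every cell thinned to 10000 counts and 4500 genes tested, 10 were higher and 8 lower, of which 7 and 5 were among the 26. Of the 26 genes, Vim (adjusted p = 0.167) and Tmsb4x (0.215) did not pass without Lck-cre plate 1, Cd53 (0.0635) and Milr1 (0.259) without Lck-cre plate 2, and Cycs (0.0538) without the WT plate, in the same edgeR fit.

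**Figure D2:**
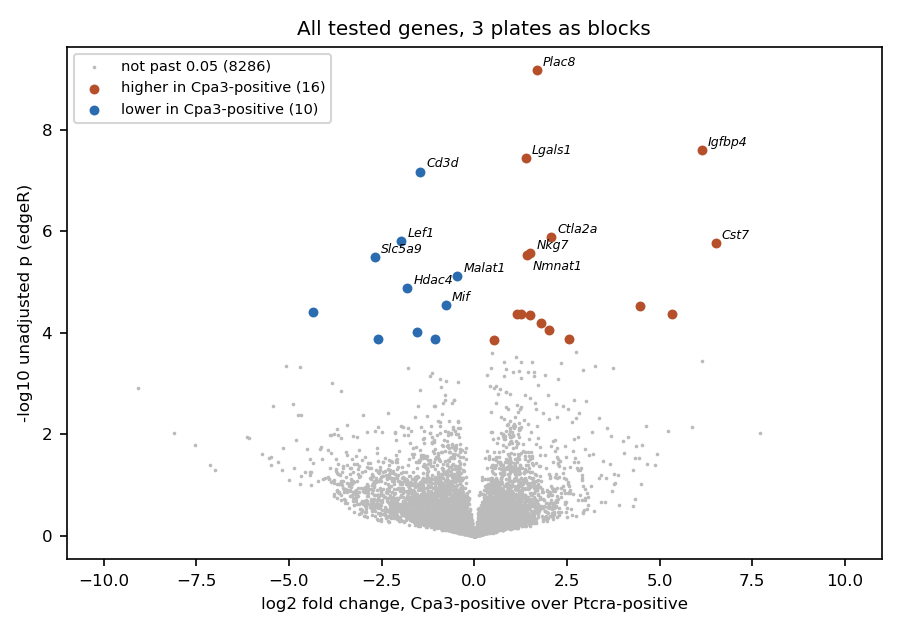
Each point is 1 of the 8312 tested genes, by its log2 fold change, Cpa3-positive over Ptcra-positive (horizontal axis), and its unadjusted p as -log10 (vertical axis). The 26 coloured genes passed an adjusted p of 0.05, 16 to the right in red and 10 to the left in blue; the 13 with the smallest p are named.

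The smallest p belonged to Plac8, a small cysteine-rich protein made in blood progenitors and several mature leukocytes. It held 2419 and 3249 CPM on the Lck-cre plates and 2858 CPM on the WT plate in Cpa3-positive sums, against 650.1 and 1024 CPM (Lck-cre) and 1029.9 CPM (WT) in Ptcra-positive sums. All 3 Cpa3-positive sums lay far above all Ptcra-positive ones, with a log2 fold change of 1.68 ± 0.13 (adjusted p = 5.58e-06, edgeR). Every Cpa3-positive cell had a Plac8 count, and 93.8% of Ptcra-positive cells did. With cells thinned to equal depth, 98.1% of Cpa3-positive and 88.3% of Ptcra-positive cells had a Plac8 count. Whether the sums differed through more RNA per cell or through more cells of a kind was not tested. Lgals1, the beta-galactoside-binding protein galectin-1, behaved alike: 2239.8 and 2399 CPM on the Lck-cre plates and 1993 CPM on the WT plate in Cpa3-positive sums, against 1007 and 948 CPM (Lck-cre) and 634 CPM (WT) in Ptcra-positive sums (log2 fold change 1.38 ± 0.14, adjusted p = 1.00e-04).

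Igfbp4, a secreted protein that binds insulin-like growth factors, was nearly absent from Ptcra-positive sums. Cpa3-positive sums held 124 and 250.0 CPM on the Lck-cre plates and 151 CPM on the WT plate, against 3.22 and 1.4 CPM (Lck-cre) and 2.32 CPM (WT) in Ptcra-positive sums. The Ptcra-positive values rest on 13, 4 and 4 counts, so the size of the fold change of 6.14 ± 0.62 on the log2 scale is loosely fixed (adjusted p = 1.00e-04, edgeR). With every cell thinned to 10000 counts, 26.9% and 3.33% of Cpa3-positive and Ptcra-positive cells had an Igfbp4 count, so most Cpa3-positive cells showed none at that depth. Cst7, which encodes cystatin F, an inhibitor of the proteases that activate granule enzymes, followed the same form. It held 60.3 and 90.6 CPM on the Lck-cre plates and 92 CPM on the WT plate in Cpa3-positive sums, against 0.248 and 1.4 CPM (Lck-cre) and 1.16 CPM (WT) in Ptcra-positive sums, there from 1, 4 and 2 counts (log2 fold change 6.51 ± 0.90, adjusted p = 0.00205).

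Itgb7, Adgrg3, Milr1 and Cd53, which encode proteins of the cell surface, were among the 16 higher genes. Itgb7, the integrin beta chain that pairs with the alpha4 and alphaE chains, held 84.9 and 84.2 CPM on the Lck-cre plates and 45.7 CPM on the WT plate in Cpa3-positive sums, against 4.21 and 2.1 CPM (Lck-cre) and 0 CPM (WT) in Ptcra-positive sums. Adgrg3, an adhesion G-protein-coupled receptor, held 128 and 93.3 CPM on the Lck-cre plates and 38.7 CPM on the WT plate in Cpa3-positive sums, against 4.46 and 9.08 CPM (Lck-cre) and 0.58 CPM (WT) in Ptcra-positive sums. Both were low or absent in every Ptcra-positive sum, and their log2 fold changes were 5.34 ± 0.97 (adjusted p = 0.0191) and 4.46 ± 0.78 (adjusted p = 0.0173). Milr1, an inhibitory receptor first known from mast cells, held 73.1 to 233 CPM in Cpa3-positive and 18 to 37.7 CPM in Ptcra-positive sums (2.56 ± 0.52, adjusted p = 0.045); its gene overlaps Polg2 on the opposite strand, and whether counting used strand is not given in the sources used here. The tetraspanin gene Cd53 held 185 to 347 CPM in Cpa3-positive and 66.7 to 78.3 CPM in Ptcra-positive sums, with a log2 fold change of 1.81 ± 0.34 (adjusted p = 0.0268).

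Ctla2a, a cysteine protease inhibitor, held 588 and 374 CPM on the Lck-cre plates and 430.2 CPM on the WT plate in Cpa3-positive sums, against 158 and 121 CPM (Lck-cre) and 65.6 CPM (WT) in Ptcra-positive sums, without overlap (log2 fold change 2.07 ± 0.28, adjusted p = 0.00205). Nkg7, a granule membrane protein of cytotoxic lymphocytes, held 674 to 1074 CPM in Cpa3-positive and 185 to 369.5 CPM in Ptcra-positive sums (1.50 ± 0.22, adjusted p = 0.00265). Nmnat1, the nuclear enzyme of NAD synthesis, held 625 to 1589.8 CPM in Cpa3-positive and 313 to 418 CPM in Ptcra-positive sums (1.41 ± 0.20, adjusted p = 0.00265), with 38.4% of its Cpa3-positive counts in 1 cell. With its highest cell taken out of each sum, the log2 fold change of Nmnat1 was 0.76 and did not pass (adjusted p = 0.564, edgeR). Vim, the intermediate filament vimentin, and S100a10, the light-chain partner of annexin A2, had log2 fold changes of 2.01 ± 0.39 (adjusted p = 0.0356) and 1.50 ± 0.27 (adjusted p = 0.0191). The 4 remaining higher genes lay outside the naming rule's 12 and are named because they complete the set: Lgals1 above, Mta3, a subunit of a chromatin-remodelling complex, and the actin-monomer-binding thymosins Tmsb10 and Tmsb4x. Their log2 fold changes were 1.15 ± 0.21, 1.27 ± 0.23 and 0.53 ± 0.11 for Mta3, Tmsb10 and Tmsb4x.

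**Figure D3:**
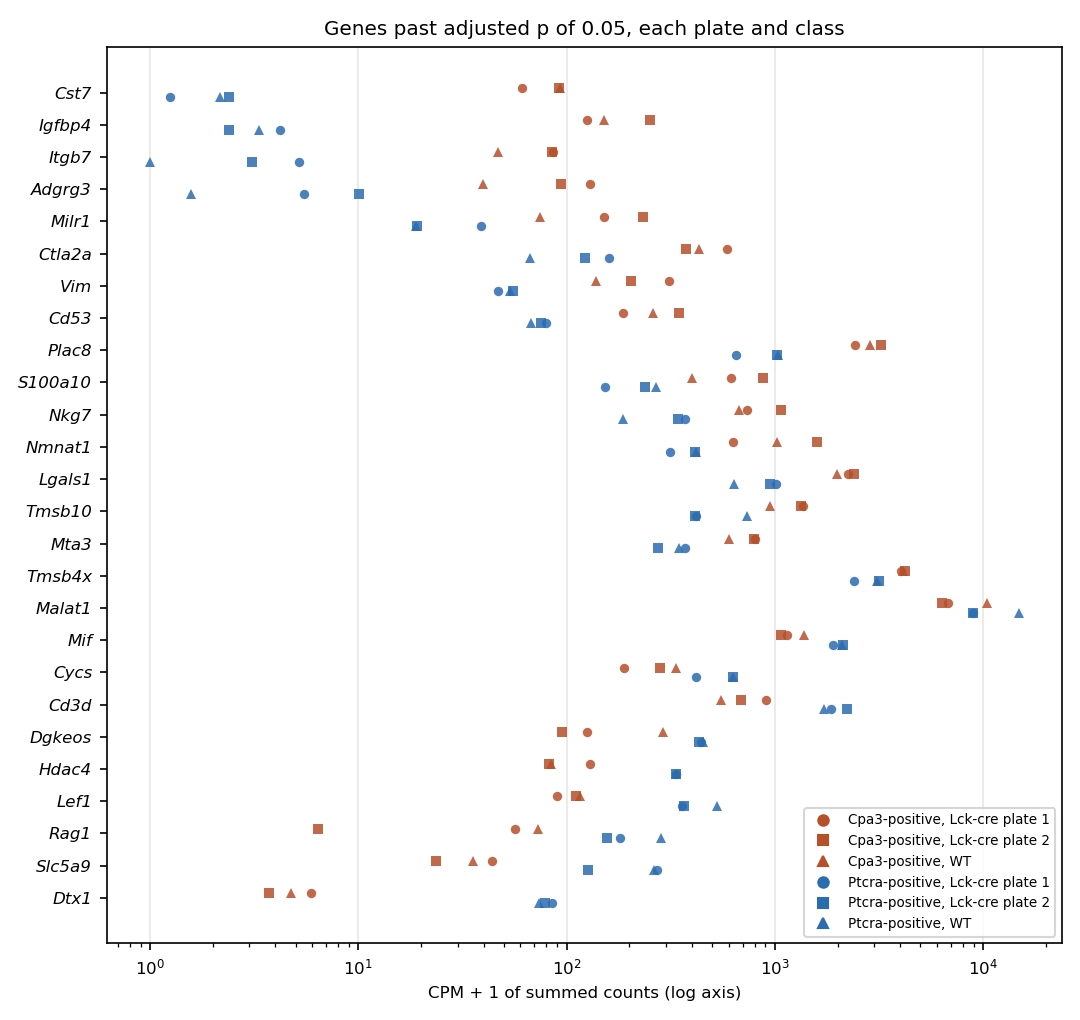
CPM + 1 (log axis) of the 26 genes past an adjusted p of 0.05, ordered by log2 fold change, with Cpa3-positive sums in red and Ptcra-positive sums in blue; circles and squares are the Lck-cre plates and triangles the WT plate. Red and blue points lie apart in every gene but Malat1.

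Cd3d and Rag1 were among the 10 genes lower in Cpa3-positive cells. Cd3d, the delta chain of the CD3 complex, held 901 and 689 CPM on the Lck-cre plates and 548 CPM on the WT plate in Cpa3-positive sums, against 1851 and 2218 CPM (Lck-cre) and 1712 CPM (WT) in Ptcra-positive sums. The highest Cpa3-positive sum was below the lowest Ptcra-positive one, at a log2 fold change of -1.45 ± 0.16 (adjusted p = 1.38e-04, edgeR). Rag1, the catalytic subunit of the recombinase, held 55.4 and 5.44 CPM on the Lck-cre plates and 72.1 CPM on the WT plate in Cpa3-positive sums, against 179 and 156 CPM (Lck-cre) and 283 CPM (WT) in Ptcra-positive sums (-2.59 ± 0.52, adjusted p = 0.045). Lck-cre plate 2 was lowest, at 6 counts over 14 cells. The call of Rag1 held in 9 of 16 alternatives. It was lost in edgeR with DESeq2 size factors (adjusted p = 0.0545), without the plate block (0.32), at 2000 or more genes a cell (0.0744), under the stricter limits (0.803), over 5 plates (0.466), and without cells carrying markers of 6 lists (0.23) or any other markers (0.997). With cells thinned to 10000 counts, 23.1% and 50.8% of Cpa3-positive and Ptcra-positive cells had a Rag1 count. Rag2, the partner subunit, pointed the same way without passing: it held 25.8 and 9.06 CPM on the Lck-cre plates and 51.6 CPM on the WT plate in Cpa3-positive sums, against 80.1 and 65.7 CPM (Lck-cre) and 65.6 CPM (WT) in Ptcra-positive sums (log2 fold change -1.56 ± 0.68, adjusted p = 0.688). Rag1 and Rag2 both overlap the gene B230118H07Rik, which lies on the strand of Rag1, so some reads may not belong to a single gene.

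Lef1, the HMG-box factor of the same family as TCF1, held 88.6 and 111 CPM on the Lck-cre plates and 116 CPM on the WT plate in Cpa3-positive sums, against 359 and 366 CPM (Lck-cre) and 525 CPM (WT) in Ptcra-positive sums. No sums overlapped, and the log2 fold change was -1.97 ± 0.27 (adjusted p = 0.00205). Dtx1, Deltex1, a target of Notch signalling and a ubiquitin ligase, held 4.92 and 2.72 CPM on the Lck-cre plates and 3.76 CPM on the WT plate in Cpa3-positive sums, against 84 and 77.9 CPM (Lck-cre) and 73.1 CPM (WT) in Ptcra-positive sums. Its Cpa3-positive values rest on 4, 3 and 7 counts, and the log2 fold change was -4.37 ± 0.78 (adjusted p = 0.0191). Dtx1 counts were found in 14.5% of Cpa3-positive and 39.5% of Ptcra-positive cells.

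Among the other lower genes, Hdac4, a class IIa histone deacetylase, held 128 and 81.5 CPM on the Lck-cre plates and 83.3 CPM on the WT plate in Cpa3-positive sums, against 333 and 333 CPM (Lck-cre) and 335 CPM (WT) in Ptcra-positive sums (-1.80 ± 0.30, adjusted p = 0.00925). Slc5a9, a sodium-coupled sugar transporter, held 43.1 and 22.6 CPM on the Lck-cre plates and 34.4 CPM on the WT plate in Cpa3-positive sums, against 271 and 126 CPM (Lck-cre) and 262 CPM (WT) in Ptcra-positive sums (-2.69 ± 0.39, adjusted p = 0.00265). The Ptcra-positive sums of Hdac4 were nearly equal on all plates, and those of Slc5a9 were lowest on Lck-cre plate 2. Dgkeos, an antisense transcript of Dgke, held 94.2 to 289.8 CPM in Cpa3-positive and 432 to 451 CPM in Ptcra-positive sums, and without strand its reads could not be told from those of Dgke. Cytochrome c (Cycs), the cytokine Mif and the nuclear RNA Malat1 had log2 fold changes of -1.07 ± 0.22, -0.77 ± 0.13 and -0.46 ± 0.07 (adjusted p = 0.045, 0.0173 and 0.00566). Those of Cycs and Mif shrank to -0.31 (adjusted p = 0.944) and -0.23 (0.867) in edgeR with thinned cells, to -0.28 and -0.25 with all cells weighted equally, and to -0.07 and 0.0063 on the deposited log2 values, so neither call held there. Malat1 was lower within each plate but its classes overlapped across plates, 6350.1 to 10431 CPM in Cpa3-positive against 8943 to 14800.0 CPM in Ptcra-positive sums.

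Gene lists of the stages gave few calls. Of 16 listed progenitor transcription factors 6 had enough counts to be tested, and none passed in either direction (median log2 fold change 0.50, against -0.11 over all genes tested). That median turned to -0.66 without Lck-cre plate 1, -0.24 with thinned cells and -0.32 over 5 plates, and was 0.089 without Lck-cre plate 2 and 1.07 without the WT plate. Spi1, encoding PU.1, held 0 to 26.3 CPM in Cpa3-positive and 0.248 to 9.86 CPM in Ptcra-positive sums, Lyl1 0 to 43.5 CPM and 0 to 1.16 CPM, and Hhex 0 to 49.5 CPM and 0 to 0.699 CPM. Such levels come from a few cells: counts of Lyl1 were in 9.09% of Cpa3-positive and 1.55% of Ptcra-positive cells. Lmo2 had no count in any of the 6 sums. Among progenitor surface and effector genes 8 of 22 were tested, Plac8 was higher and none lower (median 1.10). Cd93, a C-type lectin of early progenitors, held 81.5 to 249 CPM in Cpa3-positive and 13.6 to 25.8 CPM in Ptcra-positive sums, but missed the threshold (log2 fold change 2.74 ± 0.59, adjusted p = 0.073). Cd44, the adhesion receptor that distinguishes earlier from later double-negative cells, held 0 to 8.6 CPM in Cpa3-positive and 0.744 to 2.9 CPM in Ptcra-positive sums and was too low to test.

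Of 26 T-lineage transcription factors 23 were tested, none was higher and Lef1 alone was lower (median 0.02). Gata3, which directs commitment, held 386 and 339.7 CPM on the Lck-cre plates and 198 CPM on the WT plate in Cpa3-positive sums, against 137 and 175 CPM (Lck-cre) and 80.1 CPM (WT) in Ptcra-positive sums. Every Cpa3-positive sum lay above every Ptcra-positive one, but the log2 fold change of 1.25 ± 0.28 did not pass (adjusted p = 0.0964, edgeR). Ikzf2, the Ikaros-family factor Helios, held 129.5 to 377 CPM in Cpa3-positive and 97.9 to 159.6 CPM in Ptcra-positive sums (1.16 ± 0.33, adjusted p = 0.25). Id3, an inhibitor of E proteins, held 57 to 94.2 CPM in Cpa3-positive and 95.7 to 199.6 CPM in Ptcra-positive sums (-1.07 ± 0.43, adjusted p = 0.626), and the E protein gene Tcf12 144 to 178 CPM in Cpa3-positive and 238 to 286 CPM in Ptcra-positive sums (-0.63 ± 0.29, adjusted p = 0.718).

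For the pre-TCR, CD3 and proximal signalling genes, 19 of 22 were tested, none was higher and Cd3d alone was lower (median -0.18). Cd3e held 159 to 257 CPM in Cpa3-positive and 309.6 to 362 CPM in Ptcra-positive sums (log2 fold change -0.60 ± 0.27, adjusted p = 0.706) and Cd3g 1639.5 to 3245 CPM in Cpa3-positive and 2377 to 3662 CPM in Ptcra-positive sums (-0.44 ± 0.14, adjusted p = 0.383), so neither of the other measured CD3 chains passed. Lck, the kinase whose promoter drives the Cre of the Lck-cre mice, was present in every cell of both classes, at 861 to 1457 CPM in Cpa3-positive and 1289 to 2253 CPM in Ptcra-positive sums (-0.45 ± 0.15, adjusted p = 0.443). Trat1, an adaptor of the receptor complex, held 169 to 209 CPM in Cpa3-positive and 56.2 to 111 CPM in Ptcra-positive sums (1.23 ± 0.36, adjusted p = 0.274). Of 10 V(D)J recombination genes all were tested and Rag1 alone was called, as lower (median -0.35).

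**Figure D4:**
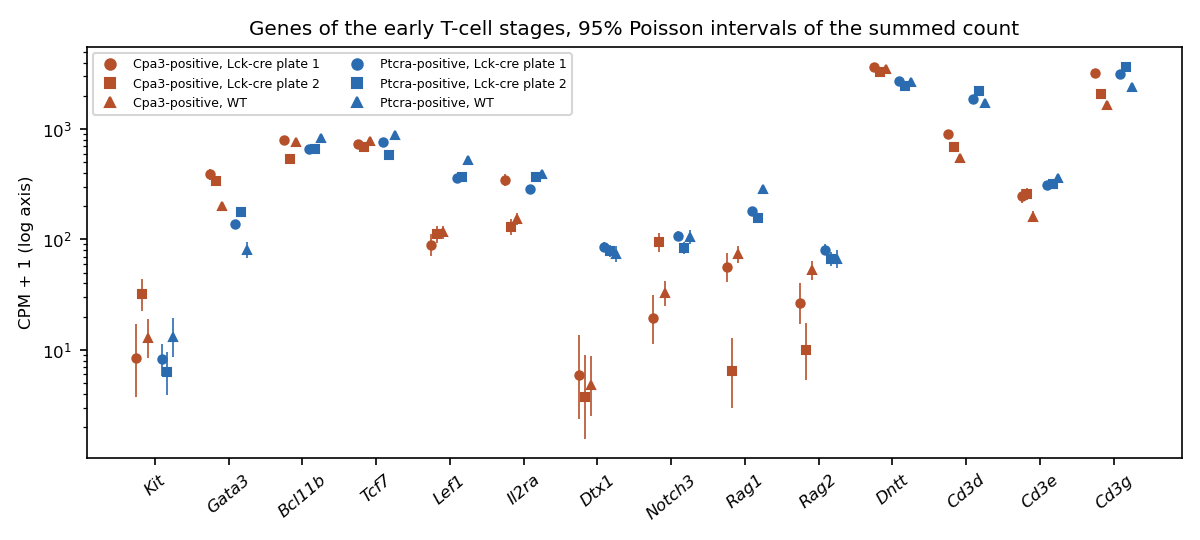
CPM + 1 (log axis) of 14 genes of the early T-cell stages in Cpa3-positive (red) and Ptcra-positive (blue) sums; circles and squares are the Lck-cre plates, triangles the WT plate, and bars the 95% Poisson interval of the summed count. Kit is low in both classes, Bcl11b and Tcf7 overlap, and Lef1, Dtx1, Rag1 and Cd3d are lower in Cpa3-positive sums.

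Of 17 Notch receptors and targets 12 were tested, none was higher and Dtx1 alone was lower (median -0.18). Hes1, a direct Notch target and transcriptional repressor, held 99.6 to 288 CPM in Cpa3-positive and 212 to 446 CPM in Ptcra-positive sums (log2 fold change -0.60 ± 0.30, adjusted p = 0.809). Il2ra, which encodes CD25, the protein of the sort gate, held 345 and 129 CPM on the Lck-cre plates and 153 CPM on the WT plate in Cpa3-positive sums, against 287 and 369 CPM (Lck-cre) and 388 CPM (WT) in Ptcra-positive sums. Lck-cre plate 1 lay among the Ptcra-positive values, and the log2 fold change of -0.87 ± 0.33 did not pass (adjusted p = 0.539). The receptor genes Notch1 (-0.57 ± 0.53, adjusted p = 0.957) and Notch3 (-1.34 ± 0.60, adjusted p = 0.706) overlapped between classes.

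Of 17 chemokine receptors and migration genes 9 were tested, Itgb7 was higher and none lower (median 0.81). Itga4, a partner chain of Itgb7, held 177 to 358 CPM in Cpa3-positive and 101 to 251 CPM in Ptcra-positive sums (0.81 ± 0.28, adjusted p = 0.452). Of 29 cytokine receptor and Jak-Stat genes 22 were tested and none passed (median 0.08); Il7r, the receptor on which these stages depend, held 208 to 242 CPM in Cpa3-positive and 186 to 219.7 CPM in Ptcra-positive sums. Socs2, a feedback inhibitor of cytokine signals, held 53.4 to 68.8 CPM in Cpa3-positive and 2.9 to 5.7 CPM in Ptcra-positive sums, without passing (3.73 ± 0.86, adjusted p = 0.102). Of 20 Bcl2 family and death genes 13 were tested and none passed (median -0.10); Bcl2, the survival gene, held 229 to 345 CPM in Cpa3-positive and 102 to 143 CPM in Ptcra-positive sums (1.25 ± 0.30, adjusted p = 0.121).

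No member of the cell-cycle, Myc and ribosome biogenesis, glycolysis, immediate-early or housekeeping lists was called in either direction. Of 28 G2 and M phase genes 27 were tested, and 25 had a negative and 2 a positive log2 fold change (median -1.22), where over all genes tested 4682 of 8312 (56.3%) were negative. The direction of this median was not stable: it was 0.186 with cells thinned to 10000 counts, 0.207 without cells carrying other markers, 0.0091 on the deposited log2 values and -0.16 with all cells weighted equally. The summed level of the list did not separate the classes: 1781 and 1458 CPM on the Lck-cre plates and 3010.2 CPM on the WT plate in Cpa3-positive sums, against 2323 and 2119.5 CPM (Lck-cre) and 2888 CPM (WT) in Ptcra-positive sums. A count of at least 5 of these genes was found in 53.8% and 21.4% of Cpa3-positive cells of the Lck-cre plates and 28.6% of those of the WT plate, against 25.9% and 27.9% (Lck-cre) and 15.6% (WT) of Ptcra-positive cells. These shares are not adjusted for depth, and on Lck-cre plate 1 and WT they are higher in Cpa3-positive cells where the median fold change is negative. S phase genes (27 of 28 tested) had a median of -0.45, G1 cyclins, kinases and inhibitors (12 of 15) -0.35, Myc and ribosome biogenesis genes (24 of 24) -0.43 and glycolysis genes (15 of 15) -0.38. The medians of S phase, Myc and ribosome biogenesis, and glycolysis genes turned to 0.0043, 0.049 and 0.232 with thinned cells, to 0.063, 0.0055 and 0.078 with equal weights, and to 0.069, 0.061 and 0.308 on the deposited log2 values. Immediate-early genes (13 of 19 tested) had a median of -0.26 and housekeeping genes (14 of 14) -0.10.

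**Figure D5:**
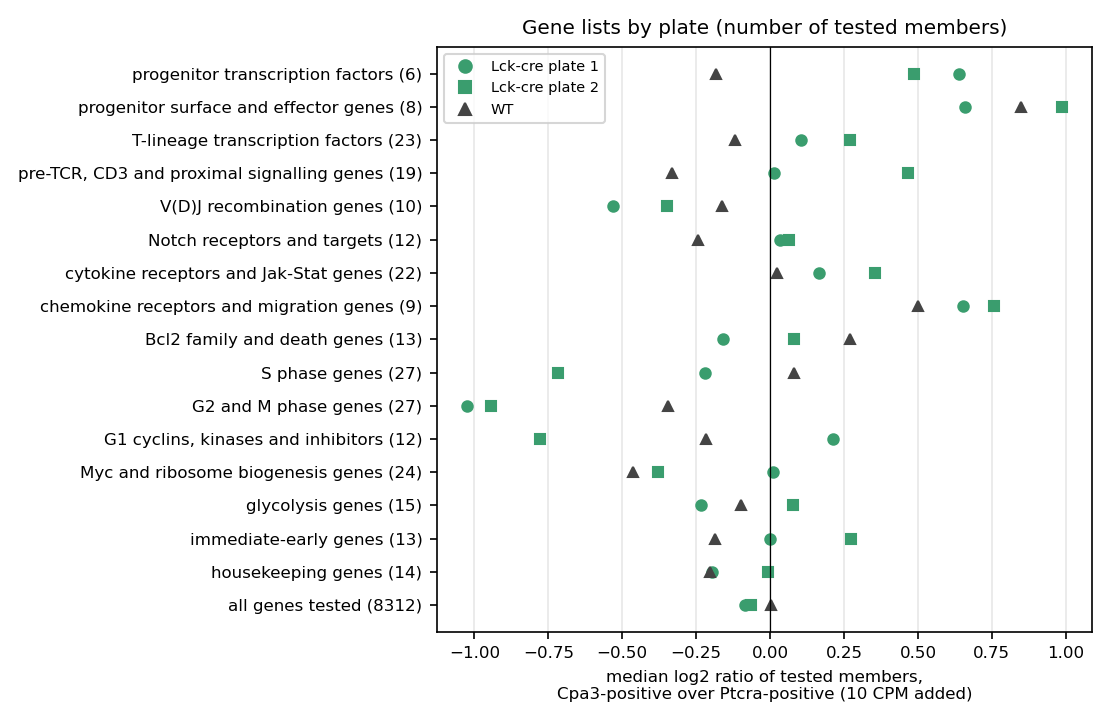
Median over the tested members of each list (number in brackets) of the log2 ratio of CPM + 10, Cpa3-positive over Ptcra-positive, on each plate (horizontal axis); green circles and squares are the Lck-cre plates and dark triangles the WT plate. The progenitor surface list and the migration list lie to the right on every plate (0.66, 0.99 and 0.85, and 0.65, 0.76 and 0.50), and the G2 and M phase list, whose median turns positive with thinned cells, to the left (-1.03, -0.94 and -0.34).

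Markers of other cell types were read in the same sums. Of 12 mast cell and basophil markers 10 had no count in any sum, among them Mcpt1, Mcpt4, Cma1, Tpsb2, Fcer1a and Ms4a2, and the list summed to 0 to 12.3 CPM in Cpa3-positive and 0 CPM in Ptcra-positive sums, so Cpa3 stood without the defining genes of mast cells. The 7 measured gamma-delta T-cell markers summed to 109 to 347 CPM in Cpa3-positive and 25.5 to 47.2 CPM in Ptcra-positive sums, with Cd163l1 at 39 to 214 CPM and 10.2 to 31.9 CPM, Blk at 27.4 to 106 CPM and 4.54 to 11.4 CPM, Maf at 21.7 to 27.1 CPM and 1.16 to 5.94 CPM, and Il17a at 0 in all sums. None of the gamma-delta markers was called. The 13 natural killer (NK) cell markers summed to 1562 to 2184 CPM in Cpa3-positive and 997 to 1108 CPM in Ptcra-positive sums. Gzma (827 to 1483 CPM in Cpa3-positive and 655 to 822 CPM in Ptcra-positive sums) and Nkg7 carried that level, while 6 of the 13, Ncr1, Klrb1c, Prf1, Eomes, Tbx21 and Klra9, had no count in any sum. Erythroid and platelet markers were at 12.7 to 45.5 CPM in Cpa3-positive and 55.2 to 256 CPM in Ptcra-positive sums, and B-cell markers at 131 to 308 CPM in Cpa3-positive and 52.2 to 147 CPM in Ptcra-positive sums, with Pax5 and Ebf1 at 0. The ranges of the B-cell, myeloid, dendritic, innate lymphoid, mature T-cell and stromal lists overlapped between the classes, and the stromal markers Krt5, Krt8 and Foxn1 had no count in any sum. Blk was counted in both the B-cell and the gamma-delta list.

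At least 2 counts in each of at least 2 markers of a single other cell type were carried by 47 of the 55 Cpa3-positive and 91 of the 129 Ptcra-positive cells. The list of double-positive and mature T-cell markers was left out of this rule: 13 and 13 Cpa3-positive cells of the Lck-cre plates and 28 of the WT plate met it, against 51 and 40 (Lck-cre) and 30 (WT) Ptcra-positive cells. Among such markers, Gzma had counts in 92.7% of Cpa3-positive and 85.3% of Ptcra-positive cells, and Nkg7 in 92.7% of Cpa3-positive and 75.2% of Ptcra-positive cells. Without those cells 8 Cpa3-positive cells were left, and 0 genes passed in either direction. With the rule restricted to 6 lists, an alternative chosen after seeing the data, 20 of 55 Cpa3-positive and 41 of 129 Ptcra-positive cells were left out. Then 5 genes passed as higher, Plac8, Lgals1, Igfbp4, Cst7 and Tmsb10, and 1 as lower, Cd3d. The part of other cell types in the remaining calls was not tested.

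The 35 cells with at least 2 counts of both genes, which no fit used, were set beside both classes. Of the 26 called genes, 21 and 20 on the Lck-cre plates and 20 on the WT plate had a level between those of the Cpa3-positive and Ptcra-positive sums. On a log2 scale that runs from 0 at the Ptcra-positive to 1 at the Cpa3-positive level, the median gene stood at 0.58 and 0.39 (Lck-cre) and 0.59 (WT). Plac8 was at 2398 and 1679 CPM (Lck-cre) and 1937 CPM (WT) in these cells, on the log2 scale nearer to the Cpa3-positive sums on Lck-cre plate 1 and WT and nearer to the Ptcra-positive sum on Lck-cre plate 2. Dtx1, in contrast, was at 16.4 and 6.98 CPM (Lck-cre) and 3.97 CPM (WT), close to its low Cpa3-positive level although the cells held Ptcra. Cd3d was at 1803 and 1357 CPM (Lck-cre) and 1580.3 CPM (WT), on the log2 scale nearer to the Ptcra-positive sums on all plates. In the 47 cells with fewer than 2 counts of each gene, 17, 17 and 14 of the 26 genes lay between the classes on Lck-cre plate 1, Lck-cre plate 2 and WT. These are values of 11 to 19 cells a plate, with no test. The 26 genes were called because the Cpa3-positive and Ptcra-positive sums lay apart, so other cells readily fall between them. No share over all genes was taken, so these counts cannot show that such cells are intermediate.

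Within each class the Lck-cre plates were set against the WT plate, as values only, with 10 CPM added before each ratio. Among genes at 50 CPM or more, 141 (2.94%) were at least 2-fold higher and 258 (5.38%) at least 2-fold lower on both Lck-cre plates than on the WT plate in Cpa3-positive cells, and 96 (2.25%) and 170 (3.99%) in Ptcra-positive cells. The Lck-cre plates differed from each other by a median absolute log2 ratio of 0.67 in Cpa3-positive and 0.32 in Ptcra-positive cells, and from WT by 0.57 and 0.59 in Cpa3-positive and 0.41 and 0.41 in Ptcra-positive cells. In Cpa3-positive cells the plates of 1 genotype thus differed by more than either did from WT. The Lck-cre sums there hold 13 and 14 cells and the WT sum 28, and the part of cell number in these medians was not tested. Of the 26 called genes, 24 reached 50 CPM in Cpa3-positive and 21 in Ptcra-positive cells. Of these, Adgrg3 was at least 2-fold higher and Dgkeos at least 2-fold lower on both Lck-cre plates in Cpa3-positive cells. None was either in Ptcra-positive cells. Milr1 fell just short on Lck-cre plate 1 through the added 10 CPM. It held 150 and 233 CPM (Lck-cre) and 73.1 CPM (WT) in Cpa3-positive sums. Dgkeos held 124 and 94.2 CPM on the Lck-cre plates and 289.8 CPM on the WT plate in Cpa3-positive sums, against 440.2 and 432 CPM (Lck-cre) and 451 CPM (WT) in Ptcra-positive sums, so its Ptcra-positive levels were alike on all plates.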

How the data were processed

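RNA of single thymocytes was sequenced on 8 plates of 96 cells, and 3 plates of the CD25-positive gate were used. Per the labels' protocols, the cDNA came from a changed form of the STRT method, and Smart-seq2 is named too. Reads were aligned with TopHat2 2.1.1 to mm10 (also given as GRCm38) and counted with HTSeq, per the submitters' processing notes; collapsing of molecular identifiers, the strand setting and the annotation are not given in the sources used here. One file deposited by the authors gives each cell's gene counts, whole and not normalized. Another file of the authors gives log2(TPM/10 + 1); these log2 values, once turned back, were proportional to the counts in each cell to within 0.0148%, so they hold no gene length term. Of 23154 entries in the count file, 27 carried a date in place of a symbol (0.141% of counts) and were dropped.

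Cells under 1000 detected genes were left out. Counts were summed per plate and class into 6 sums, scaled by TMM and tested with edgeR 4.0.16 (quasi-likelihood, filterByExpr, plate as block, Benjamini-Hochberg over 8312 genes); limma 3.58.1 and DESeq2 1.42.0 served alternatives, in R 4.3.3. The scripts were tested on simulated data. Cpa3 and Ptcra, which chose the cells, were left out of the test. Log2 fold changes are Cpa3-positive over Ptcra-positive with their standard error; log2 ratios per plate add 10 CPM. Plates and not cells are replicates. The block rests on both sums of a plate having 1 source; deviations from the class means correlated at 0.035, 0.055 and 0.049 within the plates. Intervals are 95% (Clopper-Pearson for shares, Poisson for sums) and cover counting error only. Whether molecular identifiers were collapsed is not given, and reads that are not collapsed are not independent molecules.

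Named genes had an adjusted p under 0.05, the same sign on all 3 plates, at least 50 CPM and a count in at least 20% of cells of the higher class; the 12 highest and 12 lowest fold changes were taken, with Kit, Rag1, Rag2, Tcf7 and list members described for their role. Gene positions follow GENCODE for mm10. The members, gene lists and rules were chosen with earlier results of these data known. Doublets were not called, as each well received a sorted cell.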

Additional observations from a re-analysis of the deposited data

Results flagged for a closer look

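In 6 gene lists the median log2 ratio, Cpa3-positive over Ptcra-positive, had one sign on both Lck-cre plates and the other on the WT plate. The difference was not tested, since WT is a single plate. Progenitor transcription factors had medians of 0.64 and 0.49 on the Lck-cre plates and -0.18 on the WT plate. For T-lineage transcription factors the medians were 0.11 and 0.27 (Lck-cre) and -0.12 (WT), for pre-TCR, CD3 and proximal signalling genes 0.0136 and 0.46 (Lck-cre) and -0.33 (WT), and for Notch receptors and targets 0.0335 and 0.0624 (Lck-cre) and -0.24 (WT). S phase genes had medians of -0.22 and -0.72 (Lck-cre) and 0.0803 (WT), and immediate-early genes 0.000431 and 0.27 (Lck-cre) and -0.19 (WT). Over all genes tested the medians were -0.0842 and -0.0630 (Lck-cre) and 0.00416 (WT).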

How the results depend on the processing

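The precision is limited by 13 to 28 Cpa3-positive cells a plate, by 3 plates of 2 genotypes, and by counts from 1 cell that weigh heavily in such sums. The 26 calls all passed with DESeq2's Wald test (78 higher and 41 lower in all) and with no filter on low counts (43 and 32). Without the replicate block, 6 higher and 5 lower genes passed; the same-plate correlations are small. Leaving out each plate in turn gave 27 to 35 higher and 15 to 23 lower genes. At least 6 and 0 counts gave 6 and 4, thinning to 10000 counts 10 higher, equal cell weights in limma 9 higher, and limma on the deposited log2 values 51 and 17. Taking the highest cell of each gene out of each sum gave 19 and 7 (6713 genes tested). Of the 26 genes, Nmnat1 (adjusted p = 0.564), Malat1 (0.50), Mif (0.377), Cycs (0.132) and Adgrg3 (0.129) did not pass in that edgeR fit. Without cells carrying other markers 0 and 0 genes passed, with 8 Cpa3-positive cells left and 3626 genes tested. The fold changes then reversed for Cycs (0.94), Mta3 (-0.50), Nkg7 (-1.58), Nmnat1 (-0.98), Plac8 (-0.035) and Tmsb4x (-0.21). Nkg7 is itself an NK cell marker by which cells were left out, so its reversal is not independent of that rule. Leaving out cells with markers of 6 lists gave 5 and 1 (6942 genes tested). The fit over 5 plates gave 1 (Cst7) and 3, none of the 3 among the 10 lower genes, and reversed Tmsb4x (-0.048); its added plates hold 3 and 1 Cpa3-positive cells. On the deposited log2 scale Mif reversed (0.0063). For the other alternatives the cause was not tested. With the stricter rule, Ptcra-positive shares were 45.1% and 23% on the Lck-cre plates and 15.9% in WT. Cpa3-positive shares were 8.79% and 8.05% (Lck-cre) and 17% in WT. With cells thinned to 10000 counts before the rule, Cpa3-positive shares were 20% and 12.2% (Lck-cre) and 31.25% in WT. Ptcra-positive shares were then 50.6% and 44.6% (Lck-cre) and 21.25% in WT. Igfbp4 passed in all 14 alternatives that tested it, and Plac8, Lgals1 and Cd3d in 14 of 16. Of the 26 calls, Cycs held in 5 of 16 alternatives, Tmsb4x in 6 of 16, Milr1 in 6 of 15, Mif in 7 of 16, Vim and Mta3 in 8 of 16, Adgrg3 in 8 of 14, Itgb7 in 9 of 15, and Rag1, Cd53 and Nmnat1 in 9 of 16. List medians are loosely fixed in direction: over all fits 14 of the 16 took both signs, and those of the Notch (-0.94 to -0.067) and V(D)J recombination lists (-0.75 to -0.055) alone kept theirs. The medians of the pre-TCR (-0.60 to 0.147), T-lineage factor (-0.23 to 0.26), Bcl2 family (-1.49 to 0.218), immediate-early (-1.53 to 0.062) and G1 lists (-0.89 to 0.049) ranged to either side of 0. Those of the migration (-0.072) and progenitor surface lists (-0.0097) turned without cells carrying other markers.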

Other observations

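The same count limits also found cells in the CD25-negative, CD44-positive DN1 gate of the germline Tcf7-/- mice, which no fit used: 14 Cpa3-positive and 27 Ptcra-positive cells of 96 on 1 plate. All 10 genes called lower in Cpa3-positive cells of the DN2-3 plates were also lower there, and 7 of the 16 higher ones were higher, as values of a single plate with no test. Over all 8312 genes tested, 4366 (52.5%) were lower and 3851 (46.3%) higher there. Of the 10 lower genes Malat1 was nearly equal, at 11282 CPM in Cpa3-positive and 11288 CPM in Ptcra-positive cells. Plac8 stood at 2765 CPM in Cpa3-positive and 261 CPM in Ptcra-positive cells of that plate, and Adgrg3 at 427 and 20.2 CPM. Lef1 stood at 23.2 CPM in Cpa3-positive and 104 CPM in Ptcra-positive cells, and Dtx1 at 16.6 and 125 CPM. Kit, scarce on the DN2-3 plates, was at 70.7 CPM in Cpa3-positive and 27.3 CPM in Ptcra-positive cells. Lgals1 ran the other way, at 522 CPM in Cpa3-positive and 1436 CPM in Ptcra-positive cells, as did Nkg7 at 1863 and 2980.0 CPM and Cst7 at 262 and 317 CPM. These genes were chosen after their values were seen.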
